A study of Homo sapiens with 6 samples.

Results

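The 9 genes described here carry out MHC class I antigen presentation. They are the transcriptional activator NLRC5, the heavy chains HLA-B, HLA-C, HLA-E and HLA-F, the light chain B2M, the peptide transporter genes TAP1 and TAP2, and the tapasin gene TAPBP. They were chosen by gene symbol and function, by a rule that used no measured value but was set with earlier results of these data known, and all 9 were present among the 24462 gene symbols counted. In PC3 cells transfected with control siRNA or CITED2 siRNA, 3 of the 9 genes were higher in the libraries labelled si-CITED2 (HLA-E, TAP1 and TAPBP) and 1 was lower (TAP2), by 15% to 23.5% each. Over all genes tested, 17.4% were called (edgeR, adjusted p under 0.05), 9.36% as higher and 8.09% as lower, and the count of 4 fell to 2 without si-CITED2 replicate 3 and to 3 without si-Control replicate 2. HLA-B, HLA-C, HLA-F, B2M and NLRC5 did not pass the same test.

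MHC class I molecules show peptides from inside the cell to CD8+ T cells. Proteasomes cut proteins into peptides, the TAP1 and TAP2 subunits together form the pump that carries these peptides into the endoplasmic reticulum, and tapasin holds an empty heavy chain and B2M beside the pump until a peptide is bound. HLA-B and HLA-C are classical heavy chains that present varied peptides, whereas HLA-E mainly shows leader peptides of other class I chains to NK cell receptors and HLA-F is a non-classical chain with restricted expression. Interferons raise most of these genes through factors that include IRF1 and NLRC5, and tumour cells often keep the pathway low.

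RNA was sequenced from PC3, an established line of human prostate cancer cells that grew out of a metastasis in bone. The 3 si-Control samples received a non-targeting siRNA and the 3 si-CITED2 samples siRNAs against CITED2, each at 80 nM for 72 h, and both groups therefore carried a transfected siRNA. No untransfected cells and no interferon-treated cells were compared. A figure legend of the study describes 3 independent experiments, while the labels only number the replicates. The p-values therefore rest on the variation among these 6 samples.

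The total read count was 19508925 to 28936374 per sample, and a count of 3, taken as the floor of detection for counting error only, equalled 0.104 to 0.154 CPM (counts scaled to a common library total). The CITED2 mRNA itself went against the label. It was counted 966, 1108 and 657 times in si-Control, against 893, 964 and 898 times in si-CITED2, which after normalisation was 841.2 ± 61.4 (SD, n = 3) against 996.4 ± 82.4 (SD, n = 3). Its log2 fold change was 0.24 (adjusted p = 0.0363, edgeR), and it was no longer called without si-Control replicate 1 (adjusted p = 0.0536), si-Control replicate 3 (0.141), si-CITED2 replicate 1 (0.154) or si-CITED2 replicate 3 (0.0846). The study also probed CITED2 protein by immunoblot to check the knockdown, and protein was not analysed here. The groups are named by their labels, and every direction below rests on those labels. The 5 epithelial markers were well counted but moved apart. KRT7 rose from 12914 ± 237.7 to 29508.9 ± 1801.5 normalised counts (SD, n = 3), a log2 fold change of 1.19, and KRT8 (0.24) and KRT18 (0.18) were also higher. CDH1 fell by 0.52 on the log2 scale (adjusted p = 1.67e-05, edgeR), and KRT19 (0.077) was not called. Their summed level was 52363.8 to 55353 normalised counts in the si-Control samples and 72343.4 to 79630.7 in si-CITED2, while 3 of the 4 luminal prostate markers stayed under 10 normalised counts in every sample, among them KLK3 and KLK2. The part of the epithelial marker differences in the results below was not tested.

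Interferon-stimulated response elements are the promoter sites read by interferon-activated factors. They are shown beside the direction of the genes that hold them. RefSeq promoters of GRCh38.p14, from 250 bases before to 50 bases after the start, were matched for 7 of the 9 genes (HLA-B, HLA-C, HLA-F, B2M, TAP1, TAP2 and TAPBP). The core, read as GAAA, any 2 bases and a further GAAA and searched on both strands, was found in 5 of these 7 genes and in 3.57% of all 35116 promoters. A gene was counted if any of its promoters held the core, while the share is per promoter. Each site is given 5′ to 3′ along its gene, with the matched bases in capitals, and where 2 overlapping matches occurred the capitals span both.
HLA-F: ctccccagagTTTCTCTTTCtctcccaacc
B2M: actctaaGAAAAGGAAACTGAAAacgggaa
TAP1: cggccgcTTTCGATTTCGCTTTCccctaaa
TAP2: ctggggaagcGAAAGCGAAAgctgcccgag
TAPBP: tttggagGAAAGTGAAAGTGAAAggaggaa
The windows lie at chr6:29723268-29723297 for HLA-F (plus strand), chr15:44711366-44711395 for B2M (plus strand), chr6:32853816-32853845 for TAP1 (minus strand), chr6:32838778-32838807 for TAP2 (minus strand) and chr6:33314076-33314105 for TAPBP (minus strand). The matched bases began 156, 144, 134, 58 and 20 bases before the start of HLA-F, B2M, TAP1, TAP2 and TAPBP. For TAP1 this is the start of its promoter at chr6:32853655-32853954. A further TAP1 promoter, at chr6:32852712-32853011, held no match to the core. TAP1 and TAPBP were higher and TAP2 was lower, while HLA-F (log2 fold change 0.21) and B2M (0.060) were not called. Among the genes with the core only TAP2 had a negative fold change, and its call was lost without si-CITED2 replicate 3. The part of the core in these directions was not tested. HLA-B and HLA-C held no match to these letters in the same window.

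3 further motifs tied to class I promoters were searched in the same way. CCAAT, the Y box, occurred in 5 of the 7 genes (HLA-B, HLA-C, HLA-F, B2M and TAP1) and in 34.6% of all promoters. TGACG, the core of the cyclic AMP response element, occurred in 4 (HLA-B, HLA-C, B2M and TAP2) and in 24.6% of all promoters. The palindromic NF-kappaB site of the class I enhancer occurred in HLA-B alone among the 7 and in 0.0313% of all promoters. CCAAT and TGACG are short, and such matches are descriptions of these letters only.

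The 6 samples were compared with edgeR's quasi-likelihood test on the counts of 16314 genes, and a gene was called at a Benjamini-Hochberg adjusted p under 0.05. All 9 class I genes passed the filter on low counts, and 4 of them (44.4%) were called, beside the 17.4% of all genes. Their median log2 fold change was 0.060, beside -0.0014 over all genes tested. The groups did not overlap for the same 4 genes, 3 higher and 1 lower, while 32.5% of all genes tested showed such a separation, 16.4% with si-CITED2 higher and 16.1% with si-CITED2 lower.

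**Figure D1:**
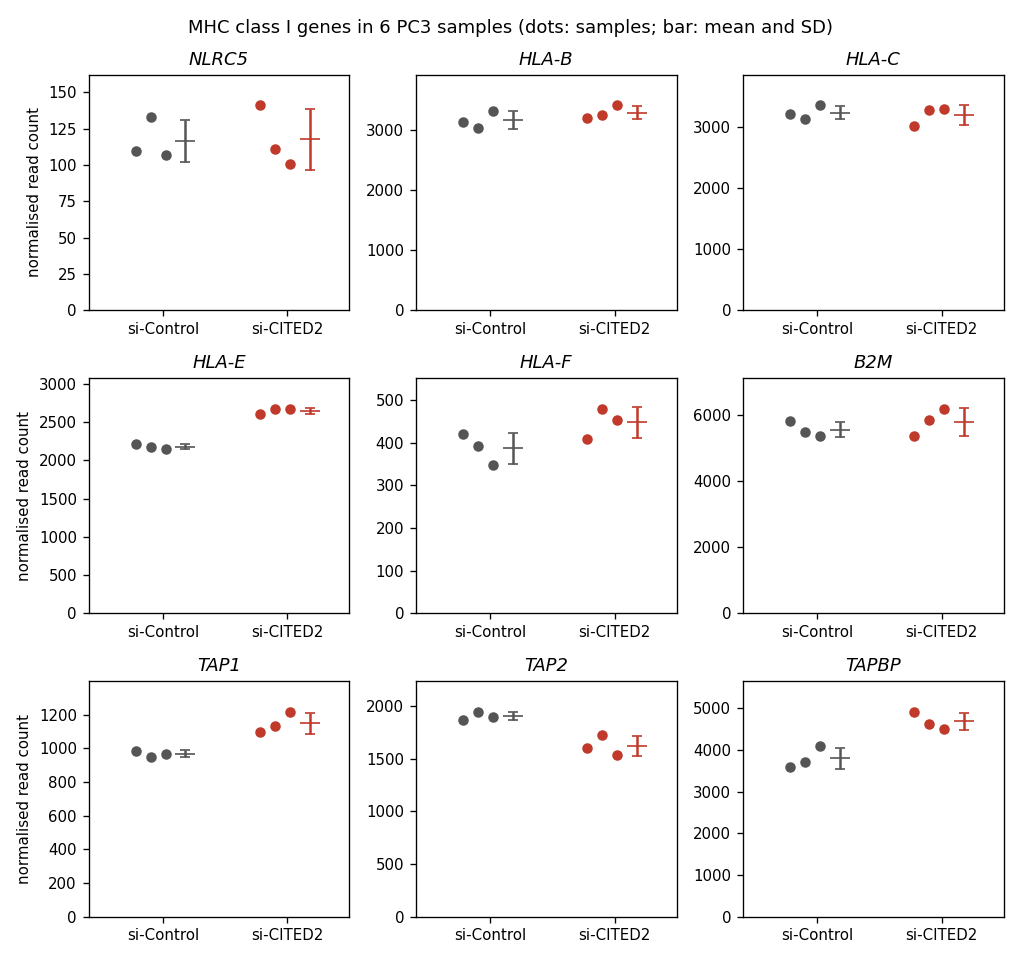
Normalised read counts of the 9 class I genes in each sample, with 1 panel per gene, a vertical axis that starts at 0, dots for the 3 si-Control and 3 si-CITED2 samples, and bars for the group mean and SD. The groups separate for HLA-E, TAP1 and TAPBP (si-CITED2 higher) and for TAP2 (si-CITED2 lower), and overlap for the other genes.

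NLRC5 is the transactivator that assembles transcription factors on class I promoters. Its normalised read count was 109.3, 132.8 and 107.1 in si-Control, against 140.9, 110.8 and 100.8 in si-CITED2. The groups overlapped, and both the highest and the lowest of the 6 values were in si-CITED2. The log2 fold change was 0.00075 with a 95% interval of -0.34 to 0.34 (adjusted p = 0.999, edgeR). NLRC5 was counted 91 to 165 times per sample, the fewest of the 9 genes, and its interval was the widest.

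The classical heavy chains were close in level. HLA-B was at 3123.2, 3036.8 and 3320.4 normalised counts in the si-Control samples and 3197.2, 3251.5 and 3405.1 in si-CITED2. HLA-C was at 3217.4, 3143.1 and 3359.3 in si-Control, against 3021.1, 3286.9 and 3305.4 in si-CITED2. The groups overlapped for both genes, and for HLA-C the lowest value was in si-CITED2 and the highest in si-Control. The log2 fold change was 0.057 for HLA-B (95% interval -0.053 to 0.17, adjusted p = 0.527, edgeR) and -0.015 for HLA-C (95% interval -0.13 to 0.097, adjusted p = 0.891, edgeR).

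HLA-E was the heavy chain that was called. Its normalised counts were 2214.8, 2169.7 and 2146.2 in si-Control, against 2603.4, 2675.4 and 2671.1 in si-CITED2. Every si-CITED2 value lay above every si-Control value, and each group spanned less than the gap between the groups. The mean was 2176.9 ± 34.9 (SD, n = 3) against 2649.9 ± 40.4 (SD, n = 3), a log2 fold change of 0.28 (SE 0.049, adjusted p = 0.000575, edgeR) or 21.7%. The adjusted p was 8.62e-06 to 0.00667 over 13 alternative settings, and HLA-E was called in all 13.

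HLA-F was counted least among the heavy chains. It was at 419.5, 392.9 and 348.3 normalised counts in the si-Control samples and 409.2, 479.7 and 453.6 in si-CITED2. The highest si-Control value lay above the lowest si-CITED2 value. The log2 fold change was 0.21 (95% interval 0.0092 to 0.41), with an unadjusted p of 0.0414 and an adjusted p of 0.151 in edgeR, and HLA-F was called in 0 of 13 alternatives.

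B2M, the invariant light chain of every class I molecule, was at 5837.5, 5503.6 and 5370.1 normalised counts in the si-Control samples and 5364.7, 5853.3 and 6202.2 in si-CITED2. The groups overlapped, and both the lowest and the highest value were in si-CITED2. The log2 fold change was 0.060 (95% interval -0.060 to 0.18, adjusted p = 0.543, edgeR). The summed counts of HLA-B, HLA-C, HLA-E and HLA-F were 1.54, 1.59 and 1.71 times those of B2M in si-Control, against 1.72, 1.66 and 1.59 times in si-CITED2. The log2 ratio differed by 0.038 between the groups (exact permutation test, two-sided, p = 0.6, where 3 samples against 3 allow no p below 0.1). That difference was 0.0052 without si-Control replicate 1, 0.081 without si-Control replicate 3, 0.0095 without si-CITED2 replicate 1 and 0.068 without si-CITED2 replicate 3. The 5 genes whose log2 CPM followed B2M most closely over the 6 samples were NRF1, STARD7, MRPS21, FUCA1 and SPA17, with Pearson's r of 0.985 to 0.992, and these points share libraries and depth. They were picked as the highest r among all 16314 genes tested, which raises r, and a link with B2M was not tested.

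The pump subunits moved in opposite directions. TAP1 was at 987.4, 947.6 and 969.5 normalised counts in the si-Control samples and 1096.5, 1131.3 and 1217.2 in si-CITED2. TAP2 was at 1873.5, 1946.7 and 1897.9 in si-Control, against 1601.6, 1723.7 and 1532.7 in si-CITED2. All 3 si-CITED2 samples lay above si-Control for TAP1 and below it for TAP2, with no overlap for either gene.

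The log2 fold change of TAP1 was 0.25 (SE 0.061, adjusted p = 0.00984, edgeR), or 18.7%. TAP2 fell by 0.23 on the log2 scale (SE 0.057, adjusted p = 0.0084, edgeR), or by 15%. TAP1 was no longer called without si-Control replicate 2 (adjusted p = 0.0508) or without si-CITED2 replicate 3 (adjusted p = 0.0713), and TAP2 was no longer called without si-CITED2 replicate 3 (adjusted p = 0.0672). Within each library, the TAP1 count was 0.527, 0.487 and 0.511 times the TAP2 count in si-Control, against 0.685, 0.656 and 0.794 times in si-CITED2. This ratio needs no scaling between libraries, was looked at after the values of both genes were known, and is given without a test.

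TAP1 shares its upstream region with PSMB9, a proteasome subunit gene that runs the other way from a start 488 bases off. PSMB9 was at 197.1 ± 14.5 normalised counts (SD, n = 3) in si-Control and 208.9 ± 9.4 (SD, n = 3) in si-CITED2, with a log2 fold change of 0.087 (95% interval -0.15 to 0.33, adjusted p = 0.679, edgeR). On the opposite strand, exons of PSMB8-AS1 overlap 456 bases of the 2959 bases of the TAP1 transcript. PSMB8-AS1 was at 209.9 ± 7.2 normalised counts in the si-Control samples and 253 ± 26.4 in si-CITED2, with a log2 fold change of 0.27 (adjusted p = 0.116, edgeR), and its part in the TAP1 count was not tested. TAP2 exons share 2011 bases with AL669918.1 on the same strand, a gene model that is not among the gene symbols counted.

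TAPBP encodes tapasin, which bridges the pump and the empty class I molecule. It was at 3594.2, 3703.4 and 4093.5 normalised counts in the si-Control samples and 4916.6, 4633.1 and 4513.9 in si-CITED2. The lowest si-CITED2 value exceeded the highest si-Control value. The mean was 3797 ± 262.5 (SD, n = 3) against 4687.9 ± 206.9 (SD, n = 3), a log2 fold change of 0.30 (SE 0.056, adjusted p = 0.001, edgeR) or 23.5%. TAPBP had the highest fold change of the 9 genes, and it was called in all 13 alternatives with an adjusted p of 1.2e-05 to 0.00951.

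**Figure D2:**
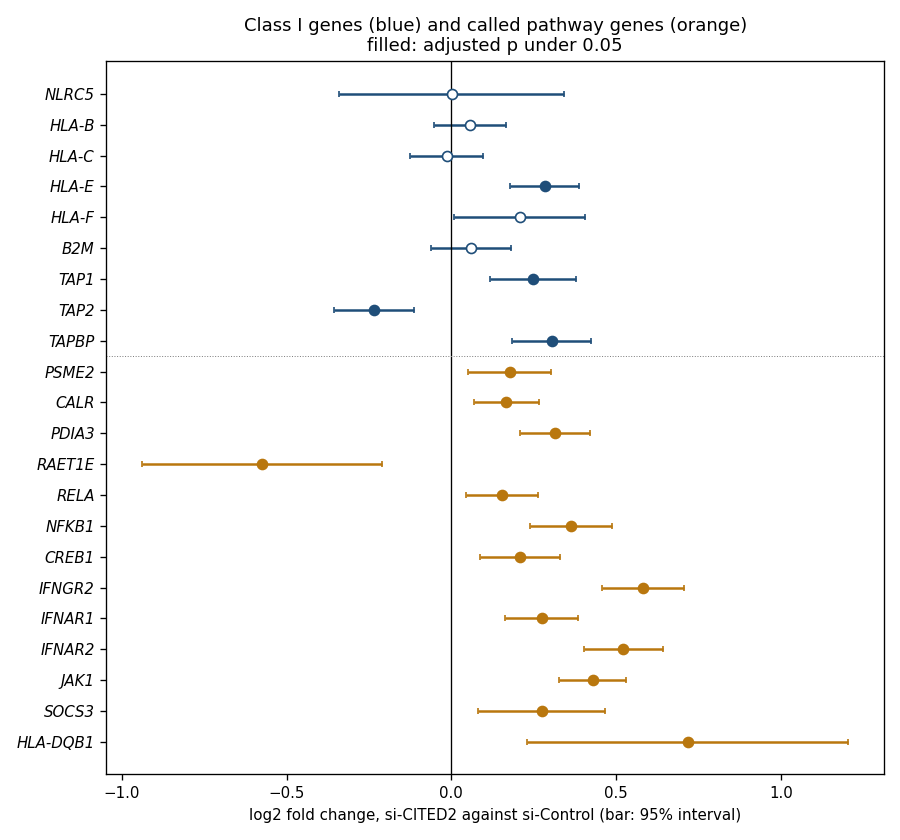
Log2 fold change of si-CITED2 against si-Control on the horizontal axis, for the 9 class I genes (blue) and 13 called genes of the pathway lists (orange), where bars are 95% intervals and filled dots have an adjusted p under 0.05. Among the class I genes, TAPBP at 0.30, HLA-E at 0.28 and TAP1 at 0.25 lie to the right of 0 and TAP2 at -0.23 to the left, while IFNGR2 reaches 0.58.

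Levels were compared between genes per kilobase of the longest principal transcript in GENCODE 29, scaled as CPM. In si-Control the order was B2M (138.7 ± 5.99, SD, n = 3), HLA-C (89.6 ± 3.04), HLA-B (86.7 ± 3.99), TAPBP (85.4 ± 5.90), HLA-E (35.5 ± 0.570), TAP2 (32.4 ± 0.634), TAP1 (13.9 ± 0.286), HLA-F (10.1 ± 0.935) and NLRC5 (0.725 ± 0.0888). HLA-C, HLA-B and TAPBP could not be ordered in si-Control, since the ranges of the 3 samples overlapped, whereas the other neighbours did not overlap. In si-CITED2 TAPBP stood at 105.4 ± 4.65, above HLA-B at 90.1 ± 2.96 and HLA-C at 88.6 ± 4.40 without overlap. The order depends on the length used. With all annotated exons of a gene as its length, B2M (38.9 ± 1.68) came after HLA-C (54.9 ± 1.86) and HLA-B (44.0 ± 2.02) in si-Control, and TAPBP overlapped HLA-E. In si-CITED2 that length put TAPBP (39.4 ± 1.74) below HLA-B (45.7 ± 1.5) and HLA-C (54.3 ± 2.69), so the place of TAPBP above them turned with the length.

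**Figure D3:**
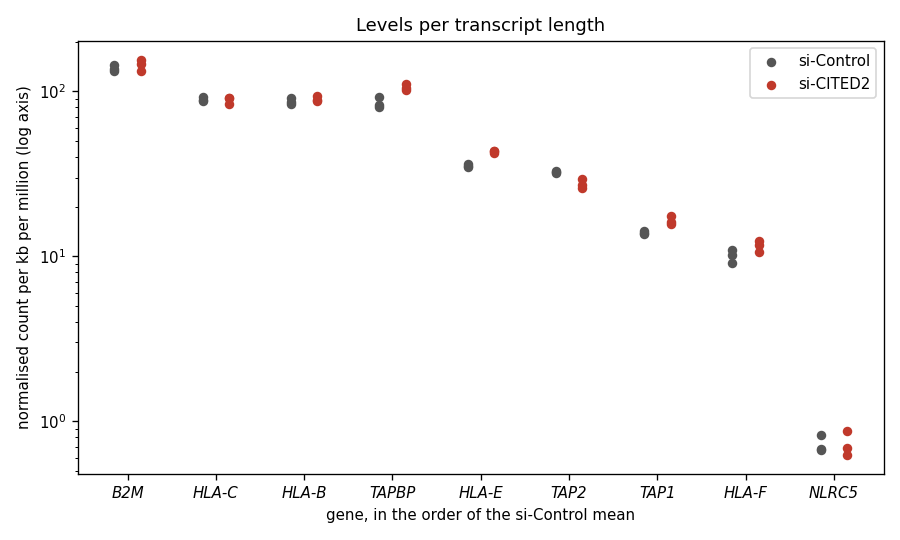
CPM per kilobase of transcript on a log axis for the 9 class I genes, ordered by their si-Control mean, with dots for the 3 samples of each group. B2M is highest at 138.7 and NLRC5 lowest at 0.725 in si-Control, and the si-CITED2 dots of TAPBP sit above those of HLA-B and HLA-C with this length, but not with all annotated exons as the length.

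How reads shared between similar HLA genes were assigned is not given in the sources used here, and PC3 alleles can differ from the reference, so the heavy chain counts carry that uncertainty. Of the 9 genes, 7 had several rows, between 5 and 8 each, and all counts of each gene stood in 1 row. HLA-H, a class I pseudogene close in sequence to the heavy chains and named here after its values were seen, had 1595.9 ± 299.5 normalised counts (SD, n = 3) in si-Control and 1291 ± 440.2 (SD, n = 3) in si-CITED2, with a log2 fold change of -0.31 (adjusted p = 0.232, edgeR). The annotated exons of HLA-B and HLA-C share 33 bases, and HLA-F overlaps HLA-F-AS1 on the other strand over 257 bases.

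Beside the 9 genes, 64 other genes of antigen presentation were read in 7 lists, of which 56 passed the filter on low counts. In these, 12 were higher, 2 were lower and 42 were not called, so that 25% of the genes fitted were called, beside the 17.4% of all genes tested. The count of 14 became 17 without si-Control replicate 1, 7 without si-Control replicate 2, 9 without si-Control replicate 3, 9 without si-CITED2 replicate 1, 7 without si-CITED2 replicate 2 and 8 without si-CITED2 replicate 3. Called in all 13 alternatives were 7 of the 14 genes, among them IFNGR2, IFNAR2, JAK1, IFNAR1, NFKB1 and PDIA3.

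The interferon receptor and kinase list held the most calls. Of its 9 genes, 5 were higher, 0 were lower and 4 were not called, with a median log2 fold change of 0.27. That made 55.6% called, beside 17.4% of all genes tested, in a list chosen with earlier results of these data known. IFNGR2, a chain of the interferon gamma receptor, was at 1408.6 ± 77.9 normalised counts (SD, n = 3) among si-Control samples and 2109.7 ± 81.8 (SD, n = 3) among those labelled si-CITED2, or a log2 fold change of 0.58 (adjusted p = 1.91e-06, edgeR). IFNAR2 and IFNAR1, which form the type I interferon receptor, had log2 fold changes of 0.52 (adjusted p = 4.8e-06) and 0.27 (adjusted p = 0.00134, both edgeR). The shared kinase JAK1 was at 3418.7 ± 96.8 in si-Control and 4599.7 ± 131.5 in si-CITED2, which gave a log2 fold change of 0.43. SOCS3, a feedback inhibitor, had a log2 fold change of 0.27 (adjusted p = 0.0479, edgeR) and lost its call when any 1 of si-Control replicates 2 and 3 and si-CITED2 replicates 1, 2 and 3 was left out (adjusted p = 0.0599 to 0.168). IFNGR1 (0.065) and JAK2 (-0.0021) were not called.

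Among the 15 transcription factors of class I genes, 3 were higher, 1 was lower and 11 were not called. The share called was 26.7%, beside 17.4% of all genes tested. IRF1, an interferon-induced factor that binds class I promoters, had a log2 fold change of 0.17 (95% interval 0.0094 to 0.33, adjusted p = 0.146, edgeR). The NF-kappaB subunit NFKB1 rose from 1888.4 ± 101 to 2425.6 ± 129.9 normalised counts, a log2 fold change of 0.36 (adjusted p = 0.000291, edgeR). CREB1, which binds TGACG elements, had a log2 fold change of 0.21 (adjusted p = 0.0192, edgeR) and was not called without si-Control replicate 2 (0.107), si-CITED2 replicate 1 (0.0606) or si-CITED2 replicate 2 (0.071). RELA, the partner of NFKB1, had 0.15 (adjusted p = 0.0477, edgeR) and was not called when any 1 sample other than si-Control replicate 1 was left out (adjusted p = 0.0557 to 0.186).

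**Figure D4:**
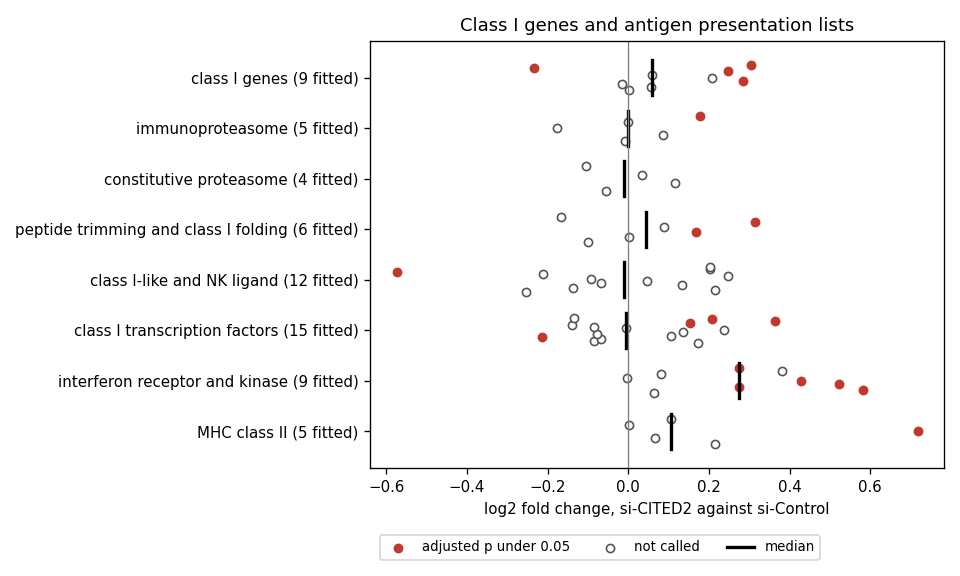
Log2 fold change of si-CITED2 against si-Control on the horizontal axis for the class I genes and the fitted genes of the 7 antigen presentation lists, where red dots have an adjusted p under 0.05, open dots were not called and black bars are list medians. The interferon receptor and kinase list has its median at 0.27, and the medians of the other lists lie between -0.010 and 0.11.

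Of the 5 immunoproteasome genes, which make class I peptides under interferon, 1 was called (20%, beside 17.4% of all genes tested). PSME2, an activator subunit, had a log2 fold change of 0.18 (adjusted p = 0.049, edgeR) and was not called when any 1 of si-Control replicates 2 and 3 and si-CITED2 replicates 1, 2 and 3 was left out (adjusted p = 0.101 to 0.167). PSMB8, which lies between TAP2 and TAP1 on chromosome 6, had a log2 fold change of -0.0079 (95% interval -0.19 to 0.17). None of the 4 genes in the constitutive proteasome list was called in edgeR. PSME3, an activator gene of that list that is not part of the ratio below, alone had an unadjusted interval that left out 0 (-0.20 to -0.0064). The summed counts of the inducible subunits PSMB8, PSMB9 and PSMB10 were 0.0845, 0.0947 and 0.0988 times those of PSMB5, PSMB6 and PSMB7 in si-Control, against 0.0877, 0.0877 and 0.0885 times in si-CITED2. The log2 ratio differed by -0.072 (exact permutation test, two-sided, p = 0.4), and by -0.14 without si-Control replicate 1 (exact p = 0.1, the smallest that 2 samples against 3 allow) and -0.025 without si-Control replicate 3 (exact p = 0.7).

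In the peptide trimming and folding list, 2 of 6 genes were higher and 0 were lower (33.3% called, beside 17.4% of all genes tested). PDIA3, the thiol oxidoreductase that pairs with tapasin in the loading complex, was at 11707.8 ± 419.7 normalised counts (SD, n = 3) among si-Control samples and 14568.3 ± 669.6 (SD, n = 3) among those labelled si-CITED2, or a log2 fold change of 0.32 (adjusted p = 0.000248, edgeR). CALR, the chaperone calreticulin of the same complex, had a log2 fold change of 0.17 (adjusted p = 0.0192, edgeR) and was not called without si-Control replicate 2 (0.0927), si-CITED2 replicate 2 (0.107) or si-CITED2 replicate 3 (0.12). The other 4 genes were not called, with log2 fold changes of 0.088 for the chaperone CANX, -0.17 for the tapasin relative TAPBPL, and -0.10 and 0.00065 for the peptide trimming enzymes ERAP1 and ERAP2.

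Among 13 class I-like molecules and NK cell ligands, 12 passed the filter and 1 was called (8.33%, beside 17.4% of all genes tested). RAET1E, a ligand of the NKG2D receptor, was at 111.6 ± 20.2 normalised counts (SD, n = 3) in si-Control and 75.1 ± 4.7 (SD, n = 3) in si-CITED2, and fell by 0.57 on the log2 scale (adjusted p = 0.0289, edgeR). It was not called without si-Control replicate 2 (0.149), si-Control replicate 3 (0.0703), si-CITED2 replicate 2 (0.103) or si-CITED2 replicate 3 (0.0832). MICA and MICB, other ligands of this receptor, had log2 fold changes of -0.067 and 0.046 and were not called. HLA-G, a further class I chain read in this list, was at 503.1 ± 82.4 normalised counts (SD, n = 3) in si-Control and 420.8 ± 78.6 (SD, n = 3) in si-CITED2. Its log2 fold change of -0.25 was opposite in sign to those of HLA-E and HLA-F, and it was not called (adjusted p = 0.209, edgeR).

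MHC class II genes, which professional antigen-presenting cells use, differed in level. CIITA, the class II relative of NLRC5, was counted 1 to 5 times per sample, HLA-DRA 0 to 3 times and HLA-DQA1 0 to 2 times, and 7 of the 12 genes did not pass the filter. Of the 5 that did, 1 was called (20%, beside 17.4% of all genes tested). The invariant chain CD74 was counted 132 to 276 times and the class II chain HLA-DRB1 39 to 279 times per sample, and neither was called. HLA-DRB1 was at 45.9 normalised counts in si-Control replicate 3 and at 155.6 to 248 in the other 5 samples. HLA-DQB1 was the class II gene called, at 48.5 ± 16.9 normalised counts (SD, n = 3) in si-Control and 80.4 ± 12.7 (SD, n = 3) in si-CITED2 (log2 fold change 0.72, adjusted p = 0.0404, edgeR), and it was called in 7 of 13 alternatives. It lost its call when any 1 of si-Control replicates 2 and 3 and si-CITED2 replicates 1, 2 and 3 was left out (adjusted p = 0.0539 to 0.198), and class II paralogs share sequence. Of the 10 leukocyte markers, 6 stayed under 10 normalised counts in every sample, among them PTPRC, CD3E, MS4A1, FCGR3A and NKG7. Without CD68, which epithelial cells also express, their summed level was 40.3 to 57.7 normalised counts in the si-Control samples and 48.6 to 92 in si-CITED2, and PTPRC was counted 0 to 2 times per sample. LYZ was the largest part of that sum in si-CITED2, at 18.9 ± 11.7 in si-Control and 34.6 ± 9.2 in si-CITED2 (SD, n = 3). Its log2 fold change was 0.93, and it was not called (adjusted p = 0.107, edgeR). CD14 reached 13.3 in si-Control replicate 1 and ITGAM 20.8 in si-CITED2 replicate 3. In bulk RNA such as this, fewer cells that express a gene and less RNA of it per cell cannot be told apart.

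**Figure D5:**
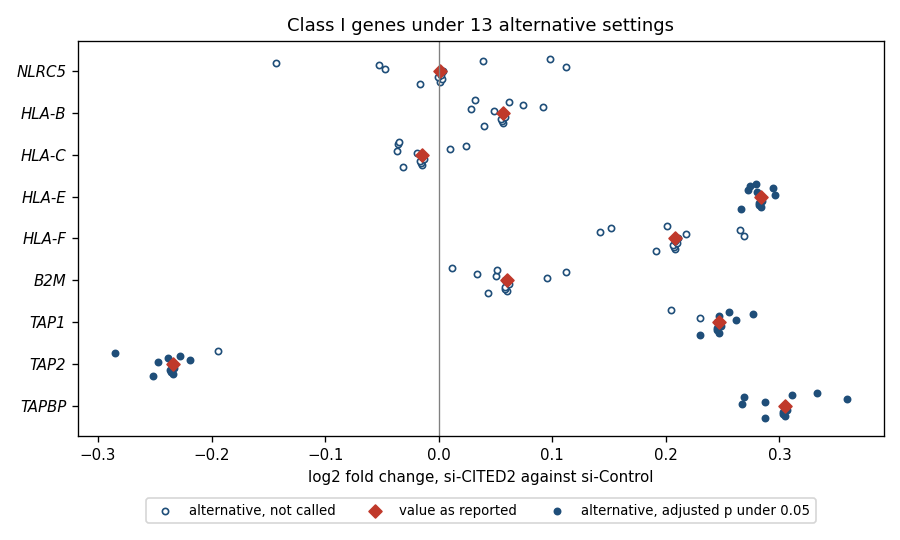
Log2 fold change of each class I gene as reported (red diamonds) and under 13 alternative settings (blue, filled where the adjusted p was under 0.05). HLA-E stays between 0.27 and 0.30 and TAPBP between 0.27 and 0.36, TAP1 and TAP2 lose the call in 2 and 1 of the settings, and NLRC5 lies on both sides of 0 (-0.14 to 0.11).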

How the data were processed

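For each of 6 PC3 samples the authors deposited unnormalized read counts by gene symbol. The submitters' processing notes name TopHat, edgeR and the build hg19, and the labels a SMARTer mRNA-Seq kit. The counting program, the annotation and the strand setting are not given in the sources used here. For a symbol with several rows, the row with most counts was kept, and the rows left out held 0.0821% of all counts.

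Differential expression was tested with edgeR 4.0.16 in R 4.3.3 (filterByExpr, TMM, glmQLFit and glmQLFTest, unpaired), and p-values were adjusted by Benjamini-Hochberg over 16314 genes. To give normalised counts, each count was scaled by its TMM-adjusted library size to the mean size. For log2 CPM the prior count was 2. The scripts were tested on simulated data. No replicate pair was alike within sampling noise (smallest chi-square/df 2.89).

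The members and lists were chosen with earlier results of these data known. The naming rule covered all 9 members, up to 4 called genes per list, genes of a list near 0, CITED2 and the 5 genes most like B2M; other names, among them SOCS3, PSMB8-AS1 and uncalled list genes, were chosen after values were seen. Alternatives were other scalings, DESeq2 1.42.0, other filters, summed rows, the replicate block and leaving out each sample. Transcript lengths came from GENCODE 29 and promoters from RefSeq (GRCh38.p14), not the build of the counts. Some genes of the lists are not reported here by name.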

Additional observations from a re-analysis of the deposited data

How the results depend on the processing

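Across 13 alternatives, 107 of 117 fold changes of the 9 genes kept their direction and their side of the threshold, 3 lost the call (TAP1 and TAP2, as given above) and 7 changed sign, all of them of NLRC5 or HLA-C, which were never called. NLRC5 was at -0.017 without TMM and at -0.00094 without a filter on low counts, and leaving out each sample in turn gave -0.14 to 0.11 for NLRC5 and -0.037 to 0.024 for HLA-C. Leaving out each sample gave 2 to 4 called class I genes, 7 to 17 called pathway genes and a CITED2 log2 fold change of 0.17 to 0.29. Without TMM the CITED2 value was 0.221 (adjusted p = 0.0518, edgeR). DESeq2 called 4 class I genes and 10 pathway genes. Samples with the same replicate number did not deviate together (Pearson's r across genes -0.038 to 0.034), and 2 of 6 samples correlated best with their own number. With the replicate block, 4 class I genes and 11 pathway genes were called, and CITED2 was at 0.24. Within replicate numbers, the log2 ratio of heavy chains to B2M differed by 0.038 (exact sign-flip test, p = 0.75). That of inducible to constitutive proteasome subunits differed by -0.072 (exact sign-flip test, p = 0.5). This test flips the signs of 3 differences and allows no p below 0.25. Genes with few counts, such as NLRC5, have wide intervals at this depth, and with 3 samples a group the test can miss small changes of genes that were not called.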
